A study of Mus musculus with 6 samples.

Results

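Lysophospholipid acyltransferases, the enzymes that put a fatty acid back onto a lysophospholipid, were followed as a family of 10 genes around *Lpcat3* in liver F4/80-positive cells. The members were chosen by their symbols as enzymes of this kind, not by their measured values, although earlier results of these data were known. All 10 were among the 49315 genes listed in the deposited tables. The cells came from 3 WT and 3 Lpcat3 KOMac mice, and 1 RNA library was sequenced per mouse after a high-fat diet of 16 weeks with 60% fat. Mice of both groups carried 2 floxed alleles of *Lpcat3* (Lpcat3 fl/fl) on a C57BL/6N background and entered the diet at 8 to 12 weeks of age. WT mice were littermates without Cre (LysM +/+), and Lpcat3 KOMac mice carried 1 copy of the LysM-Cre allele (LysM Cre/+), which is driven by the promoter of the lysozyme gene *Lyz2* and acts in myeloid cells at large rather than in Kupffer cells alone. The study used mice of both sexes, and the labels do not give the sex of these 6. The cells were taken with anti-F4/80 beads from the supernatant of collagenase-digested liver, so that carried-over cells of other kinds could contribute RNA.

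Cells change the fatty acids of a finished membrane lipid without making it anew: a chain is clipped off, which leaves a lysophospholipid, and an acyltransferase attaches another chain that is activated with coenzyme A. Which enzyme does so largely sets which chain the lipid receives. *Lpcat3* prefers polyunsaturated chains such as arachidonic acid and places them in phosphatidylcholine and phosphatidylethanolamine, which makes it the main gate of arachidonic acid into the membranes of liver, intestine and macrophages. It belongs, with *Mboat1*, *Mboat2* and *Mboat7*, to the membrane-bound O-acyltransferases (MBOAT), while *Lpcat1*, *Lpcat2*, *Lpcat4*, *Lclat1*, *Lpgat1* and *Agpat3* belong to the unrelated AGPAT family.

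Candidate exons for the floxed segment of *Lpcat3* are shown because the counts cannot resolve it. The study's text places the gene-trap cassette of the targeting vector downstream of exon 2, whereas its drawing of the allele puts exon 2 between the loxP sites, so the sequences of both exon 2 and exon 3 are given, in lower case throughout, from the plus strand of GRCm38 (GENCODE M21, from the reference transcript with 13 exons). Exon 2 lies at chr6:124698070-124698177 and is 108 bases long, a multiple of 3. Exon 3 lies at chr6:124699239-124699345 and is 107 bases long, which leaves 2 bases over after division by 3. Both exons are coding over their whole length.
Exon 2: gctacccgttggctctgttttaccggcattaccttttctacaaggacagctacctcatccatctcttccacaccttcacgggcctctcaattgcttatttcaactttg
Exon 3: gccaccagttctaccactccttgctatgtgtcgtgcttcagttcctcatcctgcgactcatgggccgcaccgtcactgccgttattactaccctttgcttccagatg
Exon 2 makes up 3.3% and exon 3 makes up 3.27% of the 3268 exonic bases over which the reads of *Lpcat3* were counted. The deposited values are sums over the whole gene, so a transcript that lacks the deleted exon still adds to them, and they do not give the share of intact transcript.

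Total counts lay between 44954224 and 71392812 per library. The Kupffer cell transcripts *Adgre1*, which encodes F4/80, and *Clec4f* were high in all 6 libraries. They were between 1985 and 3051 CPM and between 6449 and 12171 CPM, respectively (CPM, TMM-normalized counts scaled to the size of the library). Other Kupffer cell transcripts varied more, with *Marco* between 148 and 3168 CPM and *Timd4* between 123 and 938 CPM. Both were lowest in Lpcat3 KOMac mouse 2 and highest in WT mouse 2. The summed level of 6 hepatocyte transcripts was 22485 CPM in WT mouse 1 and 13627 CPM in Lpcat3 KOMac mouse 2, against 2026 and 1811 CPM in WT mice 2 and 3 and 5011 and 4815 CPM in Lpcat3 KOMac mice 1 and 3. These 2 libraries were the richest in hepatocyte RNA, and every Lpcat3 KOMac library was above WT mice 2 and 3. All 6 hepatocyte transcripts had log2 fold changes below 0 (median -0.34), but the direction rested on WT mouse 1, since all 6 were above 0 without it (median 1.97) and also without both WT mouse 1 and Lpcat3 KOMac mouse 2 (median 1.37), so that leaving out the 2 libraries did not make the genotypes alike in hepatocyte RNA. Summed markers were at 795 to 1063 CPM for sinusoidal endothelium (5 transcripts), 19.7 to 95.5 CPM for neutrophils and monocytes (4), 35.7 to 134 CPM for stellate cells and cholangiocytes (4) and 2.74 to 5.12 CPM for T, NK and B cells (4). Most of the neutrophil and monocyte sum was *Ccr2*, which ran from 17.5 CPM in WT mouse 2 to 92.5 CPM in WT mouse 3. *S100a8*, *S100a9* and *Ly6c2* were at 0.579 to 2.83 CPM. None of the transcripts in these sums was at 0 in any library. The sum of 9 Kupffer cell transcripts was 36702 to 51932 CPM in WT and 26888 to 37554 CPM in Lpcat3 KOMac mice. All 9 had log2 fold changes below 0, beside 59.9% of all genes tested. All 4 neutrophil and monocyte transcripts and 4 of the 5 endothelial ones were above 0, beside 40.1% of all genes tested. Among the 9 is *Lyz2*, the locus that holds the Cre. Without it the sum was 32007 to 44274 CPM in WT and 25355 to 34573 CPM in Lpcat3 KOMac mice. The genotypes overlapped in the sum both with and without *Lyz2*. None of the marker transcripts passed an adjusted p-value of 0.05 in edgeR. Under an unadjusted 0.05 in edgeR were 3 of the 9 Kupffer cell transcripts (*Clec4f*, *C1qa*, *Lyz2*), *Kdr* and *S100a8*, beside 2.64% of all genes. *Clec4f* was at 8772 to 12171 CPM in WT and 6449 to 8331 CPM in Lpcat3 KOMac mice. *C1qa* and *Lyz2* were likewise lower, and *S100a8* higher, in every Lpcat3 KOMac mouse, beside 7.49% of all genes without overlap. The part of such shifts in the levels of the family was not tested beyond the hepatocyte transcripts. In such a preparation, fewer cells of a type and less RNA per cell cannot be told apart.

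*Lpcat3* was the only member whose levels did not overlap between the genotypes among the 9 members with enough counts to be tested. *Lpcat3* (ENSMUSG00000004270, chromosome 6, 124663027 to 124704418) was measured at 85, 66.2 and 61.2 CPM across WT mice 1 to 3, against 19.5, 33.3 and 19.4 CPM across Lpcat3 KOMac mice 1 to 3. Every Lpcat3 KOMac mouse was below every WT mouse. The highest values of the 2 genotypes were those of WT mouse 1 and Lpcat3 KOMac mouse 2, the libraries with most hepatocyte RNA. The mean was 70.8 ± 12.5 CPM in WT and 24.1 ± 7.99 CPM in Lpcat3 KOMac cells (SD, n = 3 each), so that 34% of the WT level was left in the sorted preparation. The part of hepatocyte RNA in this remainder was not tested beyond the refits given below. The log2 fold change of Lpcat3 KOMac against WT was -1.56 (standard error [SE] 0.26, 95% interval -2.21 to -0.90), which corresponds to 0.216 to 0.534 times the WT level. In edgeR's quasi-likelihood test its p-value was 0.00119 before and 1 after Benjamini-Hochberg adjustment over all 16134 genes tested (exact two-sided permutation test of the single gene, p = 0.1, the lowest value possible with 3 mice per group). Among all genes tested, 7.49% did not overlap between the genotypes.

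No member passed an adjusted p-value of 0.05 in edgeR's quasi-likelihood test, and neither did any other gene (0% of 16134 genes). At an unadjusted p-value under 0.05, 1 of the 9 members was found, *Lpcat3*, against 2.64% of all genes. The Wald test of DESeq2 called 12 genes at an adjusted p-value of 0.05, or 0.0744% of the 16134 genes entered. Among the 12 was 1 member, again *Lpcat3* (log2 fold change -1.55, adjusted p = 0.00286 from DESeq2). DESeq2 did not give every gene an adjusted p-value, and *Mboat1* was among those without. Leaving out WT mouse 1 and Lpcat3 KOMac mouse 2, the libraries with most hepatocyte RNA, moved the log2 fold change of *Lpcat3* to -1.71 (SE 0.09, adjusted p = 0.0591 in edgeR), with hepatocyte transcripts then higher in Lpcat3 KOMac cells. In a fit adjusted for the mean hepatocyte transcript level it was -1.67 (SE 0.19, adjusted p = 0.494 in edgeR). *Lpcat3* shares 334 exonic bases with *Emg1* on the other strand, which had at most 2675 counts in a library, and the strand setting of the counting is not given in the sources used here.

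**Figure D1:**
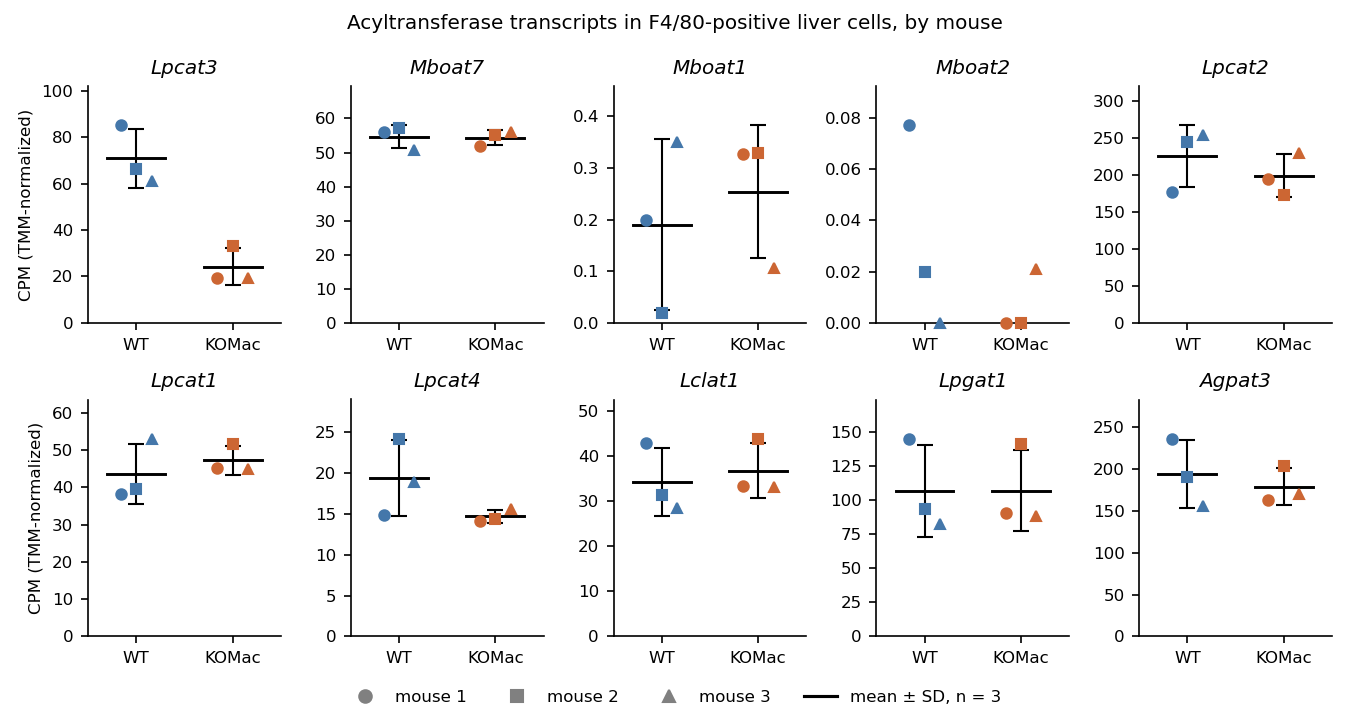
Level of each of the 10 members in CPM (y axis, from 0, a scale of its own for each gene) in the 3 WT and 3 Lpcat3 KOMac libraries; each symbol is 1 mouse, and bars give the mean and SD (n = 3), which were left out for *Mboat2* because 3 of its 6 libraries were at 0. Only the *Lpcat3* panel shows 2 groups that do not overlap, at 61.2 to 85 CPM in WT and 19.4 to 33.3 CPM in Lpcat3 KOMac mice.

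The other MBOAT members were either even across the 6 mice or hardly detected. *Mboat7* (ENSMUSG00000035596, chromosome 7, 3677789 to 3693523), which transfers arachidonic acid to lysophosphatidylinositol, was measured at 56, 57.1 and 50.8 CPM across WT mice 1 to 3, against 51.9, 55.2 and 56.1 CPM across Lpcat3 KOMac mice 1 to 3. The groups overlapped throughout, and the highest library was only 1.12 times the lowest, the narrowest range among the 9 tested members. On the log2 scale the genotypes differed by -0.01 (SE 0.08, adjusted p = 1 in edgeR), with a 95% interval of 0.865 to 1.15 times the WT level, and its sign changed with the scaling (0.01 with DESeq2's size factors and 0.09 with total counts). *Mboat7* shares 277 exonic bases with *Tsen34* on the other strand, which had at most 2650 counts in a library.

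*Mboat1* (ENSMUSG00000038732, chromosome 13, 30136498 to 30246717), an acyltransferase for lysophosphatidylethanolamine and lysophosphatidylserine, was counted 13, 1 and 16 times in WT mice 1 to 3 and 19, 17 and 5 times in Lpcat3 KOMac mice 1 to 3. The ranges of the groups overlapped, and the 95% interval of its log2 fold change of 0.43 ran from -1.71 to 2.58, so that it covers changes of several-fold in either direction. *Mboat2* (ENSMUSG00000020646, chromosome 12, 24831599 to 24960301), a related enzyme that favors oleic acid, had 5, 1 and 0 counts in WT mice 1 to 3 and 0, 0 and 1 in Lpcat3 KOMac mice 1 to 3, too few to be tested. With 3 counts as the floor of detection, which is 0.0462 to 0.0656 CPM in these libraries, only WT mouse 1 was above it.

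Among the AGPAT-type enzymes, *Lpcat2* was the most abundant and did not differ between the genotypes beyond the spread of the mice. *Lpcat2* (ENSMUSG00000033192, chromosome 8, 92855339 to 92919279) acylates lysophosphatidylcholine and also makes platelet-activating factor in inflammatory cells. It was measured at 177, 244 and 254 CPM across WT mice 1 to 3, against 195, 173 and 230 CPM across Lpcat3 KOMac mice 1 to 3. The lowest values of the 2 groups were those of WT mouse 1 and Lpcat3 KOMac mouse 2, the libraries rich in hepatocyte RNA, and the groups overlapped. Its log2 fold change was -0.17 (SE 0.18, 95% interval -0.61 to 0.27, adjusted p = 1 in edgeR). An overlapping antisense gene, *Gm45472*, had at most 136 counts.

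*Lpcat1* (ENSMUSG00000021608, chromosome 13, 73467197 to 73516422), known for the saturated phosphatidylcholine of lung surfactant, was measured at 38.3, 39.5 and 53 CPM across WT mice 1 to 3, against 45.1, 51.7 and 44.9 CPM across Lpcat3 KOMac mice 1 to 3. The WT mice spanned the whole range of the Lpcat3 KOMac mice. Its log2 fold change of 0.12 (SE 0.15, 95% interval -0.26 to 0.49) turned to -0.04 without WT mouse 1 and Lpcat3 KOMac mouse 2.

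*Lpcat4* (ENSMUSG00000027134, chromosome 2, 112239468 to 112247111), which acts on lysophosphatidylethanolamine, had the largest difference after *Lpcat3* among the members above 1 CPM. It was measured at 14.9, 24.2 and 18.9 CPM across WT mice 1 to 3, against 14.1, 14.4 and 15.6 CPM across Lpcat3 KOMac mice 1 to 3. The Lpcat3 KOMac mice lay close together at the lower end, and WT mouse 1 lay among them. The log2 fold change was -0.40 (SE 0.19, 95% interval -0.86 to 0.07, unadjusted p = 0.084 and adjusted p = 1 in edgeR), so the difference did not pass the test. Without WT mouse 1 and Lpcat3 KOMac mouse 2 it was -0.54 (unadjusted p = 0.0209, adjusted p = 0.305 in edgeR). In that fit 2 members, *Lpcat3* and *Lpcat4*, were under an unadjusted p-value of 0.05, beside 11% of all genes. Without WT mouse 2 the log2 fold change of *Lpcat4* was -0.20.

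*Agpat3*, *Lpgat1* and *Lclat1* had their 2 highest libraries in WT mouse 1 and Lpcat3 KOMac mouse 2, the pair with most hepatocyte RNA. This held for 3 of the 9 tested members, beside 21.8% of all genes tested. *Agpat3* (ENSMUSG00000001211, chromosome 10, 78269178 to 78352489) acylates lysophosphatidic acid and is known for placing docosahexaenoic acid. It was measured at 236, 190 and 156 CPM across WT mice 1 to 3, against 163, 204 and 170 CPM across Lpcat3 KOMac mice 1 to 3. *Lpgat1* (ENSMUSG00000026623, chromosome 1, 191717834 to 191784255), named for its action on lysophosphatidylglycerol, was measured at 145, 93.3 and 82.4 CPM across WT mice 1 to 3, against 90.5, 141 and 88.4 CPM across Lpcat3 KOMac mice 1 to 3. Its mean was the same to 3 digits in both genotypes, 107 CPM, while single mice of 1 genotype differed more than 1.5-fold. *Lclat1* (ENSMUSG00000054469, chromosome 17, 73107985 to 73243368), which acylates lysocardiolipin, was measured at 42.8, 31.2 and 28.5 CPM across WT mice 1 to 3, against 33.2, 43.7 and 33.1 CPM across Lpcat3 KOMac mice 1 to 3.

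The log2 fold changes of these 3 genes were -0.12 for *Agpat3* (SE 0.18), -0.01 for *Lpgat1* (SE 0.29) and 0.10 for *Lclat1* (SE 0.20), and the adjusted p-value of edgeR was 1 for all of them. In the fit adjusted for hepatocyte transcripts the standard errors were smaller, at 0.09, 0.13 and 0.09, and the log2 fold changes were -0.19, -0.14 and 0.01. Without the 2 libraries they were -0.05, 0.03 and 0.15, with standard errors of 0.12, 0.10 and 0.09, in a fit where the 4 remaining libraries still differed by genotype in hepatocyte RNA. The part of hepatocyte RNA in the levels of these members was not tested further.

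**Figure D2:**
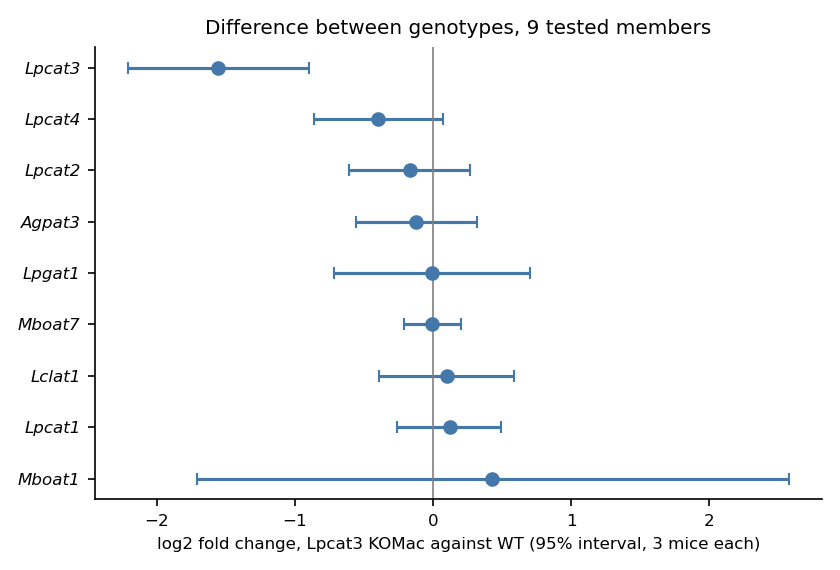
Log2 fold change of Lpcat3 KOMac against WT (x axis) for the 9 tested members (y axis); points are edgeR estimates from 3 mice each and bars their 95% intervals. *Lpcat3* alone has an interval that leaves out 0, from -2.21 to -0.90, and *Mboat1* has the widest, from -1.71 to 2.58.

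Of the 8 tested members other than *Lpcat3*, 3 had log2 fold changes above 0 and 5 below, between -0.40 and 0.43, with a median of -0.01 beside -0.04 for all genes. Unadjusted p-values were at or above 0.084 for all 8. The count of signs depended on the scaling, since with DESeq2's size factors 5 of the 9 tested members were above 0.

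Levels of different genes were compared per length, as RPKM, the CPM divided by the kilobases of all bases annotated as exon. The order in WT cells was *Lpcat2* at 66.3 ± 12.4 RPKM, *Agpat3* at 25.6 ± 5.31, *Lpcat3* at 21.7 ± 3.83, *Lpgat1* at 14.1 ± 4.42 and *Lpcat1* at 10.6 ± 1.98 RPKM (SD, n = 3). Below them came *Lclat1* at 7.29 ± 1.62, *Lpcat4* at 6.86 ± 1.65 and *Mboat7* at 6.55 ± 0.4 RPKM (SD, n = 3), followed by *Mboat1* at 0.0547 ± 0.0476 RPKM, while *Mboat2* was near the floor. *Lpcat2* was first and *Agpat3* second in all 6 libraries. The ranges of *Agpat3* and *Lpcat3* overlapped in WT, as did those of *Lpcat3* and *Lpgat1*, of *Lpgat1* and *Lpcat1*, of *Lclat1* and *Lpcat4*, and of *Lpcat4* and *Mboat7*. The 8339 bases of *Mboat7* include every base annotated as exon in any of its transcripts, and its place in the order depends on that length.

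By this measure *Lpcat3* had rank 3 in each of the 3 WT libraries and ranks 7, 5 and 7 in Lpcat3 KOMac mice 1 to 3. In Lpcat3 KOMac cells it was at 7.37 ± 2.45 RPKM (SD, n = 3), and its range overlapped those of its neighbors *Lclat1*, at 7.83 ± 1.3 RPKM, and *Mboat7*, at 6.52 ± 0.266 RPKM. *Lpcat2* was at 2.01, 3.55 and 4 times the level of *Lpcat3* per length in WT mice 1 to 3 and at 9.63, 5.01 and 11.5 times in Lpcat3 KOMac mice 1 to 3. The share of *Lpcat3* in the summed RPKM of the family was 16.4%, 12.6% and 11.9% across WT mice 1 to 3, against 4.74%, 7.26% and 4.29% in Lpcat3 KOMac mice 1 to 3. Its mean share was 13.6 ± 2.39% in WT and 5.43 ± 1.6% in Lpcat3 KOMac cells (SD, n = 3 each), and no test was made on these sums over members.

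The summed level of the other 9 members was 133, 141 and 138 RPKM across WT mice 1 to 3, against 120, 130 and 132 RPKM across Lpcat3 KOMac mice 1 to 3. All 3 Lpcat3 KOMac libraries lay below the lowest WT library, but narrowly. The closest values, 133 RPKM in WT mouse 1 and 132 RPKM in Lpcat3 KOMac mouse 3, were nearly equal. The mean was 137 ± 4.02 RPKM in WT and 128 ± 6.4 RPKM in Lpcat3 KOMac cells (SD, n = 3 each), a difference of -9.76 RPKM, of which -7.46 RPKM came from *Lpcat2*. The groups also stayed apart with DESeq2's size factors, at 135 to 139 RPKM in WT and 121 to 133 RPKM in Lpcat3 KOMac mice (difference -8.57 RPKM), whereas with total counts they overlapped, at 121 to 141 RPKM in WT and 126 to 136 RPKM in Lpcat3 KOMac mice. For *Lpcat3* itself the difference was -14.3 RPKM with TMM and -13.2 RPKM with total counts.

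**Figure D3:**
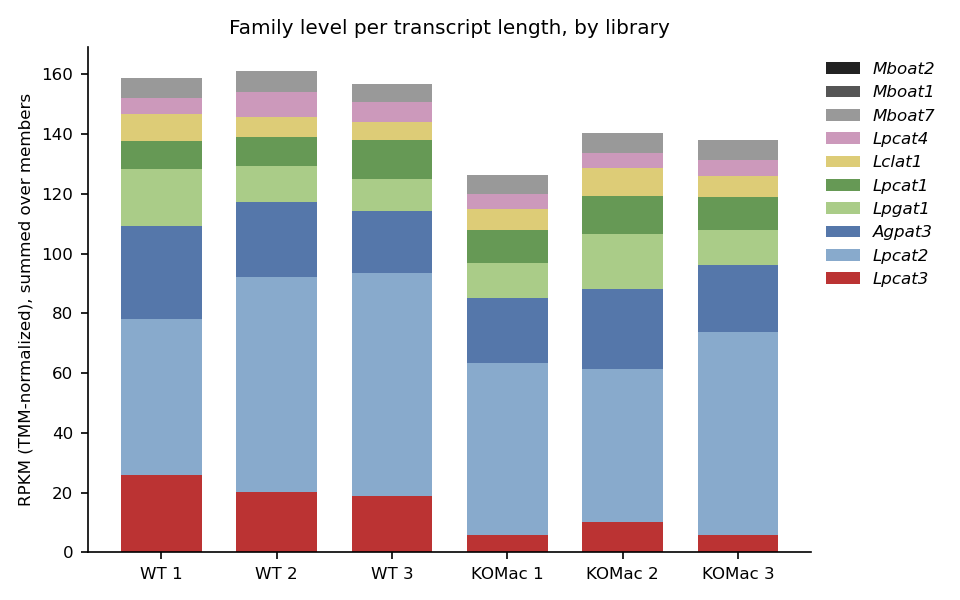
RPKM of the 10 members (y axis, from 0) stacked for each of the 6 libraries (x axis); *Mboat1* and *Mboat2* are too low to be seen. The *Lpcat3* segment at the foot of each bar holds 11.9% to 16.4% of the bar in WT and 4.29% to 7.26% in Lpcat3 KOMac mice, and *Lpcat2* is the largest segment in all 6 bars.

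The genes whose pattern over the 6 libraries was closest to that of *Lpcat3* were *Per1*, *Itgb7* and *Gbp2b*, by the mean absolute difference of centred log2 CPM. The difference was 0.42, 0.42 and 0.44, respectively, and 13000 genes with a mean of at least 1 CPM were compared. *Per1*, part of the feedback loop of the circadian clock, was measured at 58.1, 42.2 and 51 CPM across WT mice 1 to 3, against 26.6, 16 and 20.3 CPM across Lpcat3 KOMac mice 1 to 3. *Itgb7*, an integrin chain of leukocytes, was measured at 29.3, 42.6 and 34.7 CPM across WT mice, against 21.8, 25 and 9.35 CPM across Lpcat3 KOMac mice. *Gbp2b*, an interferon-inducible guanylate-binding protein with close paralogs, was measured at 148, 219 and 214 CPM across WT mice, against 133, 146 and 80.9 CPM across Lpcat3 KOMac mice. Since they were picked for this pattern, their values are a description only. *Lyz2*, which carries the Cre, was measured at 4695, 7659 and 6285 CPM across WT mice, against 2452, 1533 and 2980 CPM across Lpcat3 KOMac mice, a log2 difference of -1.42 (SE 0.30, adjusted p = 1 in edgeR). Its lowest library was Lpcat3 KOMac mouse 2, where *Lpcat3* was the highest of its genotype.

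Neighboring steps of phospholipid remodeling were examined in 5 lists with 41 genes, of which 37 were tested. None was called by edgeR (0 of 37), DESeq2 or limma-voom, and 1 (2.7%) was under an unadjusted p-value of 0.05 by edgeR, beside 2.64% of all genes. Log2 fold changes were above 0 for 12 and below 0 for 25 (67.6%), beside 59.9% below 0 and a median of -0.04 among all genes. The genotypes did not overlap for 3 of the 37, *Acsl3*, *Pla2g4c* and *Rxrb* (the last named after its values were seen), beside 7.49% of all genes. Of the 10 acyltransferases for glycerol-3-phosphate and lysophosphatidic acid and enzymes that remodel without coenzyme A, 10 were tested, 5 above and 5 below 0, with log2 fold changes from -0.34 to 0.37 and a median of -0.03. The extremes were *Agpat2* at -0.34 (SE 0.83) and *Gpat2* at 0.37 (SE 0.39). *Agpat2*, which makes phosphatidic acid, was at 71.5 CPM in WT mouse 1 against 9.16 to 33 CPM elsewhere, and without that mouse its log2 fold change was 1.15 (adjusted p = 0.294 in edgeR). *Agpat2* shares 64 exonic bases with *Egfl7* on the other strand. Among 7 further MBOAT proteins, 5 were tested, 1 above and 4 below 0 with a median of -0.02, and among them were *Porcn*, the acyltransferase of Wnt proteins, at -0.23 (SE 0.33) and *Dgat1*, which makes triglycerides, at -0.06 (SE 0.16).

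Of 12 genes listed as phospholipases A2 that release acyl chains, 11 were tested, 2 with log2 fold changes above and 9 below 0, and a median of -0.07. *Pla2g4c* was at -0.65 (SE 0.32, adjusted p = 1 in edgeR), with 3.35 ± 0.662 CPM in WT and 2.13 ± 0.684 CPM in Lpcat3 KOMac cells (SD, n = 3 each). Its genotypes did not overlap, but the closest values, 2.82 CPM in WT mouse 3 and 2.79 CPM in Lpcat3 KOMac mouse 1, were nearly equal. *Pla2g2d* was below 1 CPM in every library, at 0.45 (SE 1.10). Acyl-CoA synthetases provide the activated fatty acids, and 4 of the 5 were tested, 2 above and 2 below 0. *Acsl3*, an enzyme of the endoplasmic reticulum and lipid droplets, was measured at 13, 10.7 and 10.3 CPM across WT mice 1 to 3, against 14.7, 20.4 and 21.4 CPM across Lpcat3 KOMac mice 1 to 3. It was higher in every Lpcat3 KOMac mouse than in any WT mouse (log2 fold change 0.73, SE 0.19, unadjusted p = 0.00842 and adjusted p = 1 in edgeR), and shares 244 exonic bases with *Utp14b* on the same strand, which had at most 396 counts. *Acsl5* was at -0.23 (SE 0.12).

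The nuclear receptors known to control *Lpcat3* are the liver X receptors and the peroxisome proliferator-activated receptors, which act with retinoid X receptors. All 7 of them were tested, 2 with log2 fold changes above and 5 below 0, between -0.18 and 0.27 and with a median of -0.11. *Nr1h3*, which encodes the liver X receptor LXRα, was measured at 557, 821 and 581 CPM across WT mice 1 to 3, against 594, 525 and 605 CPM across Lpcat3 KOMac mice 1 to 3, which gave -0.18 on the log2 scale (SE 0.17, adjusted p = 1 in edgeR). *Pparg* was measured at 35.3, 21.2 and 25.9 CPM across WT mice, against 34.7, 32.9 and 31.5 CPM across Lpcat3 KOMac mice, or 0.27 on the log2 scale (SE 0.20, adjusted p = 1 in edgeR).

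**Figure D4:**
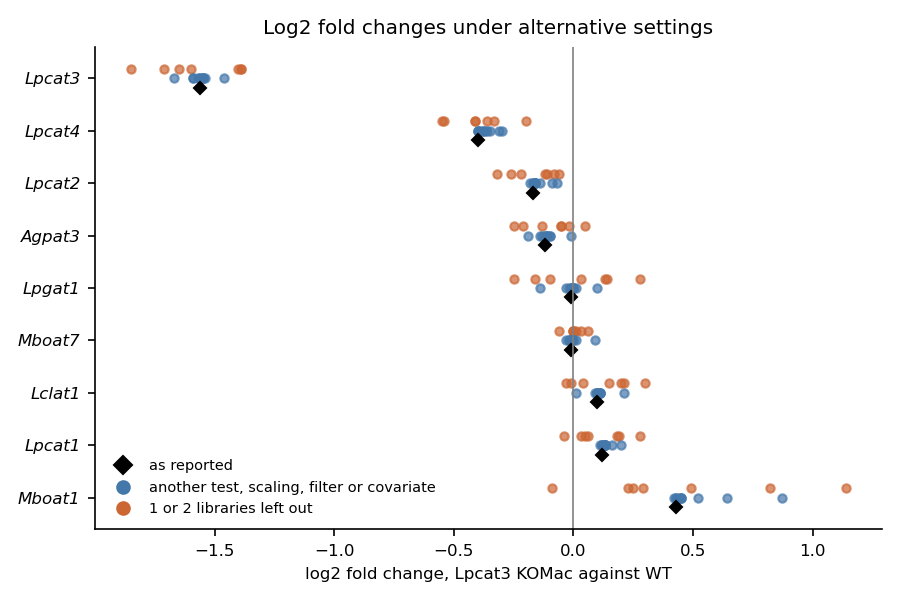
Log2 fold change of Lpcat3 KOMac against WT (x axis) of the 9 tested members (y axis) as reported (black), under another test, scaling, filter, covariate or block (blue) and with 1 or 2 libraries left out (orange). All values of *Lpcat3* lie between -1.85 and -1.39, and those of *Mboat7*, *Lpgat1*, *Lclat1*, *Lpcat1*, *Agpat3* and *Mboat1* fall on both sides of 0.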

How the data were processed

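The authors deposited, for each library, the raw count of reads on every Ensembl gene, with positions and exonic lengths and without normalization. The submitters' processing notes name Trimmomatic 0.36, STAR 2.5.2b, featureCounts and Subread 1.5.2 and the GRCm38 build. Strand setting and handling of multiply mapped reads are not given in the sources used here, so that overlapping genes and close paralogs are uncertain. Symbols came from GENCODE M21, where 48970 of the 49315 identifiers were found.

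The comparison used edgeR 4.0.16 under R 4.3.3 (TMM, minimum count 10, robust quasi-likelihood test, genotype as the only term) over 16134 genes, with Benjamini-Hochberg adjustment and a threshold of 0.05. Each standard error was obtained as the size of the log2 fold change over the root of its F statistic. Alternatives were DESeq2 1.42.0, limma-voom 3.58.1, other scalings and filters, a fit without robust dispersion, a block for replicate number, a hepatocyte covariate, a length offset and leaving out libraries. EdgeR's newer quasi-likelihood method was chosen after seeing the data. Depth was 44954224 to 71392812 counts per library, so counting error, the only error that floors and counts cover, matters for the lowest genes alone. Every pair of libraries differed by more than sampling noise (chi-square per degree of freedom 40.7 to 520).

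The members, the pathway lists and the marker lists were chosen with earlier results of these data known. Named were all members, Lyz2, the 2 tested genes with the largest absolute log2 fold change and any called gene of each pathway list, and the 3 genes with the pattern closest to Lpcat3. Replicate numbers come from the labels, which give no pairing.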

Additional observations from a re-analysis of the deposited data

How the results depend on the processing

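The log2 fold change of *Lpcat3* kept its direction in all 18 alternatives, and it passed an adjusted p-value of 0.05 in 1 of them, DESeq2 (-1.55, adjusted p = 0.00286), where the adjusted p-value in the others ran from 0.0591 to 1. It ranged from -1.85 to -1.39 with 1 library left out. DESeq2 called 12 genes, 1 of them a member, and also called *Lyz2* (-1.40) and *Per1* (-1.26). With the replicate number as a block (replicate block), edgeR called 0 members and 0 genes, at an unadjusted p-value under 0.05 it found 138 genes in place of 426, and the log2 fold change of *Lpcat3* was -1.59. Deviations of same-numbered libraries correlated across genes at -0.3, -0.6 and 0.36, and not every library correlated best with its own number. The count of members at an unadjusted p-value under 0.05 was 1 to 2 with 1 library left out, the 2 without WT mouse 1 (*Lpcat3* and *Lpcat4*, beside 12.3% of genes), and it was 2 without WT mouse 1 and Lpcat3 KOMac mouse 2. Members that did not overlap numbered 1 to 4 with 1 library left out. They were 4 without WT mouse 1 (*Lpcat2*, *Lpcat3*, *Lpcat4* and *Lclat1*, beside 32.7% of genes), 2 without WT mouse 3 (16.4%), 2 without Lpcat3 KOMac mouse 3 (15.3%) and 4 without both WT mouse 1 and Lpcat3 KOMac mouse 2 (41.8%). Fewer libraries make separation easier. With total counts the summed level of the other members was 133 RPKM in WT and 132 RPKM in Lpcat3 KOMac cells.

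Signs of members with log2 fold changes near 0 turned. *Mboat7* was at 0.01 with DESeq2's size factors, 0.09 with total counts, 0.00 with at least 10 counts in every library and in DESeq2, 0.00 without WT mouse 1 and Lpcat3 KOMac mouse 2, and between -0.06 and 0.06 with 1 library left out. *Lpgat1* was at 0.00 with DESeq2's size factors, at least 10 counts, DESeq2 and limma-voom, 0.10 with total counts, 0.01 with the replicate block, 0.03 without the 2 libraries, and between -0.25 and 0.28 with 1 left out. With 1 library left out, the ranges were -0.03 to 0.30 for *Lclat1*, -0.25 to 0.05 for *Agpat3* and -0.09 to 1.14 for *Mboat1*, and *Lpcat1* was at -0.04 without the 2 libraries. *Agpat2* was at 0.13 in limma-voom, 0.29 with the replicate block, 0.89 without the 2 libraries and -0.77 to 1.15 with 1 left out. *Dgat1* was at 0.04 with total counts, 0.05 without the 2 libraries and -0.19 to 0.06 with 1 left out, *Pla2g2d* at -0.85 in limma-voom and -0.31 to 1.04, *Porcn* at -0.50 to 0.02 and *Nr1h3* at -0.28 to 0.01. The cause of these changes was not tested. *Lpcat2* and *Lpcat4* kept their direction in all 18 alternatives. The length offset and the hepatocyte covariate called 0 members, but they also called 0 genes of any kind. Before adjustment, edgeR's test gave p below 0.05 for 2.03% of all genes with the length offset and 9.14% with the covariate. *Lpcat3* was the only member among them in both fits.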
